A study of Homo sapiens with 34 samples.

Results

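H3K4me1-alone regions are stretches of the genome at which monomethylated lysine 4 of histone H3 was found in every library of that mark while acetylated lysine 27 (H3K27ac), trimethylated lysine 4 (H3K4me3) and trimethylated lysine 27 (H3K27me3) were found in none. To select them, the 6 H3K4me1 peak lists were pooled over chromosomes 1 to 22 and X and merged wherever peaks shared at least 1 bp. A region was kept if all 6 lists contributed a peak and if no peak of the 18 H3K27ac, H3K4me3 and H3K27me3 lists touched it. Of 188491 merged H3K4me1 regions, 58979 came from all 6 lists, and 6519 of these were H3K4me1 alone, which is 11.1% of the regions in all 6 lists and 3.46% of all merged regions. They covered 13.9 Mb of the 225 Mb in all 6 lists. The regions were thus selected on H3K4me1 calls and on the absence of the other 3 marks, and neither is a result.

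The lists came from ChIP-seq in KELLY cells, a human neuroblastoma line, carrying a doxycycline-inducible shRNA to RUNX1T1, a transcriptional co-repressor. Cells received either the solvent DMSO or doxycycline for 72 h, and both arms carried the hairpin. Each of 5 histone marks, H3K4me2 being the fifth, had 3 libraries per treatment, giving 30 peak lists called library by library against input chromatin. All libraries came from 1 cell line, doxycycline without the hairpin was not among the samples analysed here, and nothing in the labels says that replicates were separate cultures, so the p-values measure the spread between these samples only. Calling depth is the smaller of the ChIP and input read totals of a list. It was 71.9 to 81.1 M in DMSO and 57.0 to 63.4 M with doxycycline. ChIP reads alone overlapped, at 71.9 to 85.2 M in DMSO and 57.1 to 84.6 M with doxycycline. Calling depth was thus lower in every doxycycline list than in any DMSO list. An effect of treatment therefore cannot be separated from one of calling depth. As a check of the label, the sympathetic neuroblast markers PHOX2A, HAND2, GATA3, ISL1, DBH and TH each carried both H3K4me3 and H3K27ac at the promoter, taken as 1 kb either side of start sites, in every list. None of 3 liver markers had H3K27ac in any list, and of 4 blood markers SPI1 had it in all 6 lists without H3K4me3.

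Enhancers carry H3K4me1, deposited mainly by the methyltransferases KMT2C and KMT2D. Acetylation of lysine 27 by p300 and CBP accompanies enhancer activity, whereas EZH2 in the Polycomb complex places H3K27me3 on silenced or poised elements. Elements with H3K4me1 and neither lysine 27 mark are commonly called primed, and H3K4me2 is found at both enhancers and promoters, often beside sites held open by transcription factors. Whether the regions described here regulate any gene was not measured, and the name primed is not used for them below.

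To show what such regions look like, 200 bases are printed from each of 6 examples that differ in H3K4me2, the mark the selection did not use. Examples were taken from the 3 regions of highest within-list H3K4me1 rank in each class, and windows are centred on the median H3K4me2 summit, or on the middle of the region where there was no H3K4me2 peak. None of the windows touches an annotated exon. The KLRG2 region, 5.52 kb from the nearest coding start site and intergenic, and the ATF3 intron region had H3K4me2 in all 6 lists. The KCNIP4 intron region had it in none, the PCCA intron region in the 3 DMSO lists only, and the ATF3 upstream and ELP6 regions in the 3 doxycycline lists only. Summits of the lists spread over 342 bp at KLRG2, 877 bp at the ATF3 intron and 226 bp at ELP6, more than the 200 bases printed. The spread was 149 bp at PCCA and 182 bp at the ATF3 upstream region. A window can thus leave out the summits of some lists. Coordinates are hg38, and capitals mark matches on either strand to 7 short motifs. The palindrome CAGCTG is an E-box core, bound by helix-loop-helix proteins, and so is the variant CATCTG. Zinc finger factors of the GATA family prefer AGATAA, and many homeodomain proteins prefer TAATTA. The AP-1 dimers recognise TGANTCA, the RUNX family recognises TGTGGT, and the TEAD family recognises CATTCC.
KLRG2 region (chr7:139488915-139489114, plus strand): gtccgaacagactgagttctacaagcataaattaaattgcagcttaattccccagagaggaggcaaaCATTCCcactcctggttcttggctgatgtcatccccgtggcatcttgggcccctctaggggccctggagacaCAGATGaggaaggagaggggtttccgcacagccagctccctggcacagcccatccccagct
ATF3 intron region (chr1:212600511-212600710, plus strand): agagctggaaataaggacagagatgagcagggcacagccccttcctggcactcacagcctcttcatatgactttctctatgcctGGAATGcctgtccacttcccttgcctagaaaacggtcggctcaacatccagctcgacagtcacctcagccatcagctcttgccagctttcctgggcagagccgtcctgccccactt
KCNIP4 intron region (chr4:21320372-21320571, plus strand): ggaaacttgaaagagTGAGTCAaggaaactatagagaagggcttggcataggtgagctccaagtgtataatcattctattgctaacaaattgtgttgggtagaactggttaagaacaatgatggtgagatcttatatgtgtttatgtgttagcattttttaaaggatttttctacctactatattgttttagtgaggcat
PCCA intron region (chr13:100473681-100473880, plus strand): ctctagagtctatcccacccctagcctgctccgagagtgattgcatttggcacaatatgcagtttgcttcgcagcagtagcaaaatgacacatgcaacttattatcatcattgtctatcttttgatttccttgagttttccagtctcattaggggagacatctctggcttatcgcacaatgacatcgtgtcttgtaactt
ATF3 upstream region (chr1:212529374-212529573, plus strand): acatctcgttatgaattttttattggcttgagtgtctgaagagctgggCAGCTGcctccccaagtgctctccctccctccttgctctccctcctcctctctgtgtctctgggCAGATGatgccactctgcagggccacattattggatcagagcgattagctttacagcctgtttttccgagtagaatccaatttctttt
ELP6 region (chr3:47542817-47543016, plus strand): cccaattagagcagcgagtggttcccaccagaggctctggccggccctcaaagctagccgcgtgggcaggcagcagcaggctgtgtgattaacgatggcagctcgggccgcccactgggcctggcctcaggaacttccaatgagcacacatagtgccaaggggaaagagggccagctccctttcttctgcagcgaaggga

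The 3 regions with the strongest H3K4me1 rank among those with H3K4me2 in all 6 lists were not alike in place. The KLRG2 region (chr7:139488049-139490338) lay between genes. Fold enrichment of H3K4me2 over local input was there 6.58, 4.22 and 2.31 in DMSO replicates 1, 2 and 3 and 10.6, 5.81 and 3.73 in doxycycline replicates 1, 2 and 3. Replicate 1 was the highest in both arms. At chr1:212598810-212602251, in an intron of ATF3, which encodes a stress-induced transcription factor, H3K4me2 enrichment was 6.30, 5.48 and 3.95 in DMSO and 11.3, 4.45 and 3.13 with doxycycline. A region overlapping an unnamed lncRNA near CCDC86 (chr11:60821311-60822877) had 6.30, 5.33 and 3.66 in DMSO and 13.5, 5.66 and 4.68 with doxycycline. Values of the arms overlapped at all 3 regions. Fold enrichment depends on the depth and input of each list, and values from different lists were not tested against each other.

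Regions with H3K4me1 at a high rank but no H3K4me2 in any list included chr4:21319391-21321553, in an intron of KCNIP4, a modulator of A-type potassium channels. H3K4me1 enrichment there was 3.79, 2.68 and 2.83 in DMSO replicates 1 to 3 and 3.36, 2.93 and 3.19 with doxycycline. A second lay at chr6:111695436-111698094, where the centre was 0.05 kb from an annotated start site of FYN, a Src-family kinase gene. This FYN start carried neither H3K4me3 nor H3K4me2 although H3K4me3 without H3K27me3 was called in all 6 lists at another FYN start. The third, chr7:135822269-135822986, was in an intron of a lncRNA gene 73.8 kb from FAM180A, a gene with neither H3K4me3 nor H3K27me3 at its start sites in any list.

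H3K4me1-alone regions were narrow. Their median width was 1891 bp (interquartile range 1389 to 2619.5 bp, full range 437 to 9524 bp), and 7.09% were under 1 kb, 47.4% from 1 to 2 kb, 39.5% from 2 to 4 kb and 6.04% 4 kb or wider. For comparison, 2 other classes were drawn from the same 58979 regions. Acetylated regions, with H3K27ac in all 6 lists and no H3K4me3 or H3K27me3, numbered 9901 and had a median width of 3921 bp. Polycomb regions, with H3K27me3 in all 6 lists and no H3K4me3 or H3K27ac, numbered 665 with a median of 2144 bp. Over all 58979 regions the median was 2825 bp. A wider region has more room for an excluding peak, so width is in part set by the selection and was not tested.

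The 3 widest were all intergenic and lay far from coding start sites. The first, 9524 bp at chr10:133043580-133053103, was 39.6 kb from ADGRA1, an adhesion G protein-coupled receptor gene, and had H3K4me2 in the replicate 1 list of each arm only (3.11-fold in DMSO and 7.46-fold with doxycycline). Next came 8941 bp at chr5:143892444-143901384, 84.8 kb from HMHB1, with H3K4me2 in DMSO replicate 1 (5.92-fold) and doxycycline replicate 3 (4.22-fold). The third spanned 8459 bp at chr17:34434603-34443061, 75.6 kb from the chemokine gene CCL1, with H3K4me2 in DMSO replicate 1 (3.73-fold) and doxycycline replicates 1 and 2 (5.56- and 3.64-fold). None of these broad regions had H3K4me2 in more than 3 lists.

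**Figure D1:**
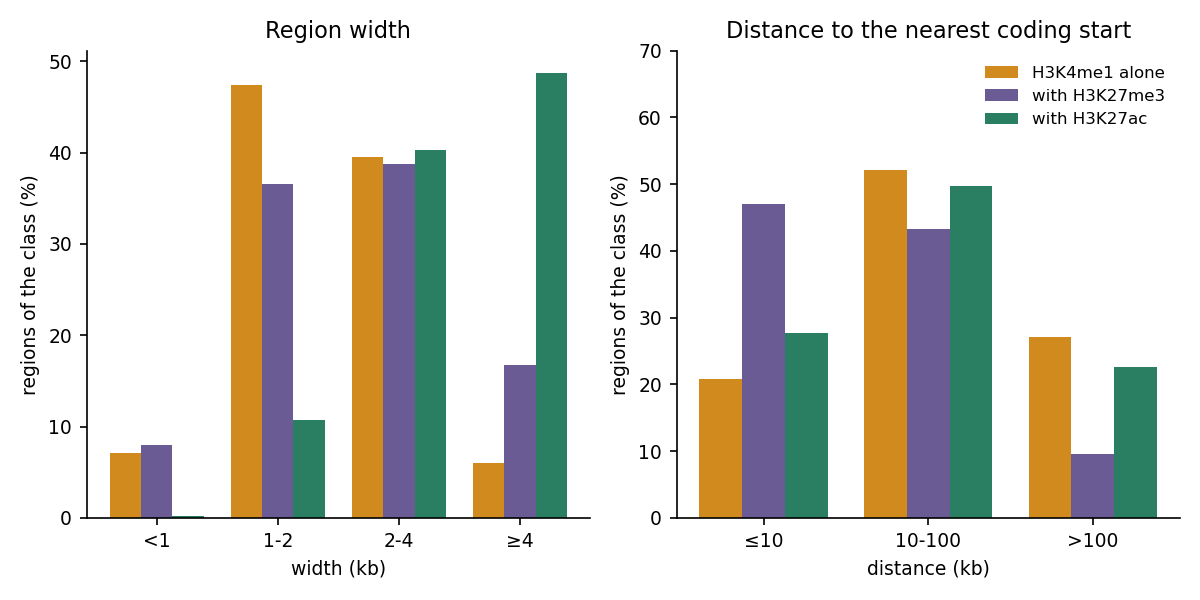
Left, percentage of regions of each class in 4 bins of width (kb). Right, percentage in 3 bins of distance from the region centre to the nearest protein-coding start site (kb). Orange bars are the 6519 H3K4me1-alone regions, purple bars 665 Polycomb regions (with H3K27me3) and green bars 9901 acetylated regions (with H3K27ac). H3K4me1-alone regions peak at 1 to 2 kb in width, and 27.1% of them lie over 100 kb from a coding start.

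H3K4me1 was weaker than in acetylated regions and close to that of Polycomb regions. Median enrichment over input was 2.81, 2.32 and 2.30 in DMSO replicates 1 to 3 and 2.87, 2.52 and 2.52 with doxycycline, against 3.53, 2.78, 2.60, 3.60, 2.99 and 2.88 in acetylated regions and 2.61, 2.36, 2.19, 2.99, 2.65 and 2.56 in Polycomb regions. Taking for each region its least significant list, the median −log10 q-value was 1.69, and 70.4% of H3K4me1-alone regions had a list below 2, close to the caller's limit. The corresponding values were 3.21 and 15.9% in acetylated and 1.90 and 53.8% in Polycomb regions. With H3K4me1 peaks restricted to q of 0.001 or less before merging, 407 regions were H3K4me1 alone in place of 6519. The borders of the selection were populated as well: 3903 regions were touched by exactly 1 excluded list, of which 3437 were touched by H3K27ac, 68 by H3K4me3 and 398 by H3K27me3, and their median width was 2145 bp. A further 5857 regions had no excluded peak but a peak in only 5 of the 6 H3K4me1 lists.

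H3K4me2 was sparse and depended on the library. In DMSO, 52.2% of H3K4me1-alone regions held an H3K4me2 peak in replicate 1 (95% exact binomial interval 51.0 to 53.4), 8.22% in replicate 2 (7.57 to 8.92) and 7.15% in replicate 3 (6.53 to 7.80). With doxycycline the shares were 38.2% (37.0 to 39.4), 6.60% (6.01 to 7.23) and 12.5% (11.8 to 13.4). The replicate 1 libraries thus stood apart in both treatments, and the intervals, which cover counting of regions only, were far narrower than the spread between libraries. Regions found in the sparser lists were largely found in the rich ones: 97.0% of the 536 regions of DMSO replicate 2 also had a peak in DMSO replicate 1, and those 520 made up 15.3% of the list of DMSO replicate 1. Between DMSO replicates 2 and 3, neither of which is rich, 181 regions were shared, 33.8% of the former and 38.8% of the latter.

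**Figure D2:**
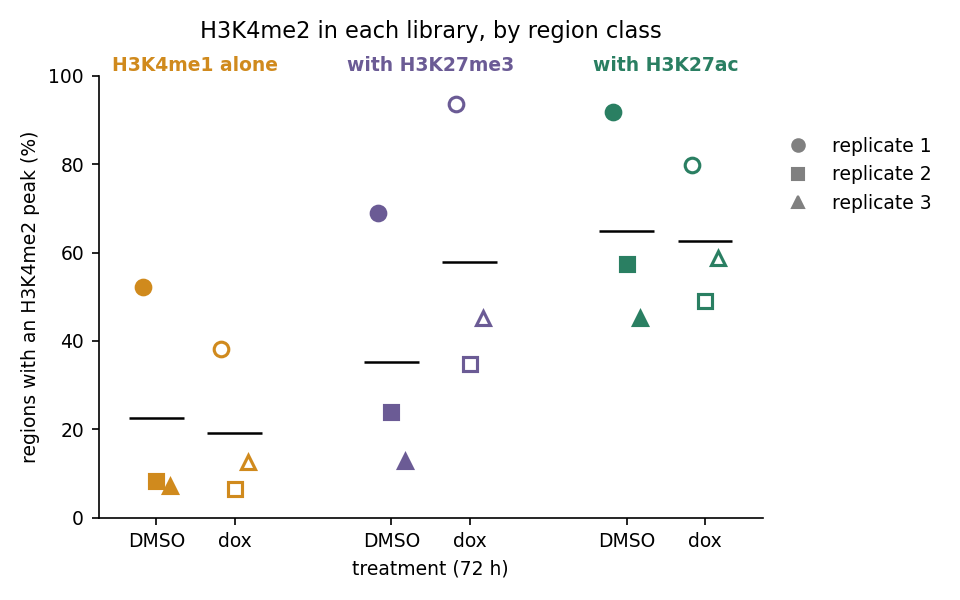
Percentage of regions with an H3K4me2 peak (vertical axis, %) in each of 6 libraries, by treatment (72 h, horizontal axis) and region class. Symbols give the replicate number, filled symbols are DMSO, open symbols doxycycline, and lines are means of 3 libraries. Replicate 1 is highest in every group, and in each library the H3K4me1-alone share is the lowest of the 3 classes.

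Acetylated regions carried H3K4me2 more often in every library. Their shares were 91.7, 57.5 and 45.2% in DMSO replicates 1 to 3 and 79.8, 49.2 and 58.7% with doxycycline. The H3K4me1-alone share averaged 20.8% ± 19.5 (SD, n = 6 libraries) against 63.7% ± 18.2, a mean difference of −42.9 percentage points, and it was lower in 6 of 6 libraries (exact two-sided sign-flip permutation test, p = 0.03125, the smallest 6 libraries allow, adjusted p = 0.0375 over the 6 class comparisons). H3K4me2 peaks were also narrower there, with medians averaging 371 bp ± 57.5 against 540 bp ± 139, a log2 ratio of −0.52, and slightly weaker, with a log2 ratio of fold enrichment of −0.096, both lower in 6 of 6 libraries (exact sign-flip p = 0.03125, adjusted p = 0.0375 each).

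These differences were smaller between regions taken from 1 band of width or of H3K4me1 strength. Among regions of 1 to 2 kb, 3088 H3K4me1-alone and 1062 acetylated, the mean difference in share was −26.2 points. Among regions whose mean within-list H3K4me1 percentile was 60 to 80, a comparison added after the data were seen with 1350 and 3522 regions, it was −16.2 points. The median percentile was 48.0 over all H3K4me1-alone and 78.1 over all acetylated regions. Strength can thus still differ within this band, and its part in the remaining difference was not tested. There the H3K4me1-alone shares were 84.6, 21.3 and 16.2% in DMSO and 68.2, 15.7 and 27.6% with doxycycline, and the acetylated shares were 94.1, 45.2, 35.2, 74.6, 33.0 and 48.8% in the same order. Both restricted differences were lower in 6 of 6 libraries (exact sign-flip p = 0.03125). The peak width ratio moved from −0.52 to −0.36 and −0.17 on the log2 scale, respectively. Enrichment was no longer below the threshold when H3K4me2 peaks were limited to a −log10 q-value of 10 or more (log2 ratio −0.071, exact p = 0.09375), to an equal number of the strongest peaks per list (−0.061, exact p = 0.0625), or when H3K4me1 peaks were limited to q of 0.001 or less (−0.048, exact p = 0.0625).

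Polycomb regions had H3K4me2 in 68.9, 23.9 and 12.8% in DMSO replicates 1 to 3 and in 93.7, 34.9 and 45.1% with doxycycline. H3K4me1-alone regions were lower in 6 of 6 libraries by a mean of 25.7 points (difference −25.7, exact sign-flip p = 0.03125, adjusted p = 0.0375), and their H3K4me2 peaks were narrower (log2 ratio −0.22, same p and adjusted p). Median H3K4me2 enrichment differed by a log2 ratio of 0.011 (exact sign-flip p = 0.875). H3K4me1-alone regions were lower in 1 of 6 libraries, doxycycline replicate 1, at 4.72 against 5.60. Without that library the log2 ratio was 0.0635 (exact sign-flip p = 0.0625, the smallest that 5 libraries allow). With H3K4me1 percentile held to 60 to 80, where only 203 Polycomb regions remained, the difference in share was −17.4 points and did not pass (exact p = 0.09375), and neither did that in width (log2 ratio −0.12, exact p = 0.4375). The width difference also failed to pass among regions of 1 to 2 kb, with H3K4me2 peaks of −log10 q of 10 or more and with H3K4me1 peaks of q 0.001 or less (log2 ratios −0.22, −0.18 and −0.24, exact p = 0.0625 each).

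The gap to Polycomb regions was −16.7, −15.7 and −5.63 points in DMSO replicates 1 to 3 and −55.5, −28.3 and −32.6 points with doxycycline. The arms did not overlap, and their means differed by −26.1 points (exact permutation test, two-sided, p = 0.1, the smallest that 3 against 3 libraries allow). Polycomb regions gained 24.8, 11.0 and 32.3 points from DMSO to doxycycline in replicates 1, 2 and 3, while H3K4me1-alone regions moved by −14.0, −1.63 and 5.40 points. The gap to acetylated regions was −39.5, −49.2 and −38.1 points in DMSO and −41.6, −42.6 and −46.1 points with doxycycline, and these arms overlapped (exact permutation p = 0.8). Both contrasts by treatment were added after the data were seen.

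For the regions as a class, the test between doxycycline and DMSO could make no call, since 3 against 3 libraries allow no p below 0.1. The mean share with H3K4me2 was 22.5% ± 25.7 (SD, n = 3) in DMSO and 19.1% ± 16.8 with doxycycline, a difference of −3.42 points (exact two-sided permutation test, p = 0.8, adjusted p = 0.9), and without the replicate 1 libraries of both arms the difference was 2.09 points. Length covered by H3K4me1 inside the regions was 10.6, 7.26 and 8.12 Mb in DMSO and 9.52, 6.58 and 7.17 Mb with doxycycline, lower in all 3 same-numbered pairs, with a log2 ratio of −0.16 (exact permutation p = 0.5, adjusted p = 0.9, where 0.1 is the smallest possible p). H3K4me2 covered 1.79, 0.242 and 0.160 Mb in DMSO and 1.40, 0.186 and 0.316 Mb with doxycycline (log2 ratio 0.083, exact permutation p = 0.9). The selection itself required an H3K4me1 peak in every list of both arms. Regions that lacked the mark in an arm were thus left out, which limits the H3K4me1 comparison beforehand. Every one of these ranges overlapped between arms. With 3 libraries against 3 and 1 rich library in each arm, a change of any size could not have passed. The values therefore do not show that the treatment left the regions unchanged.

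Counted over lists, 2262 H3K4me1-alone regions (34.7%) had H3K4me2 in no list, against 9.31% of all 58979 H3K4me1 regions. The counts for 1, 2, 3, 4 and 5 lists were 2143, 1139, 495, 247 and 149. Only 84 regions (1.29%) had it in all 6 lists, against 43.6% of all 58979, of which 17999 had H3K4me3 in all 6 lists. Among acetylated regions 347 (3.504%) had it in no list and 2617 (26.4%) in all 6. Of 665 Polycomb regions, 26 (3.91%) had no list and 41 (6.17%) had all 6.

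**Figure D3:**
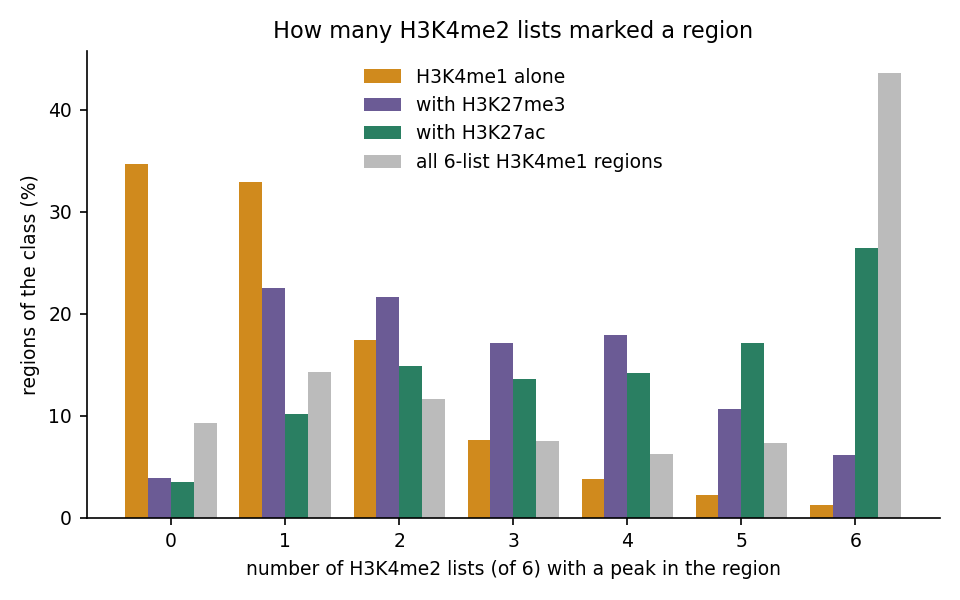
Percentage of regions of each class (vertical axis, %) by the number of H3K4me2 lists, of 6, with a peak in the region (horizontal axis). H3K4me1-alone regions (orange) concentrate at 0 and 1 lists, with 34.7% at 0, whereas acetylated regions (green) spread towards 6 lists and 43.6% of all H3K4me1 regions (grey) reach 6; purple bars are Polycomb regions.

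H3K4me2 went with the strength of H3K4me1. When the regions were split into quartiles by their mean within-list H3K4me1 percentile, 68.4% of the weakest quartile and 4.54% of the strongest had no H3K4me2 in any list. In DMSO replicate 1 the share with H3K4me2 was 21.3, 41.8, 60.7 and 85.0% from the weakest to the strongest quartile, and in DMSO replicate 2 it was 1.04, 2.02, 4.91 and 24.9%. The order was the same in the other 4 libraries. Width moved with it less: regions under 1 kb had no H3K4me2 in 39.2% of cases and those of 4 kb or more in 19.04%. The 84 regions with all 6 lists had a median width of 2471.5 bp and a median H3K4me1 percentile of 80.8, against 1812 bp and 38.2 for regions with none. H3K4me1 and H3K4me2 were called against the same inputs, and the part of the inputs and of depth in this relation was not tested.

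**Figure D4:**
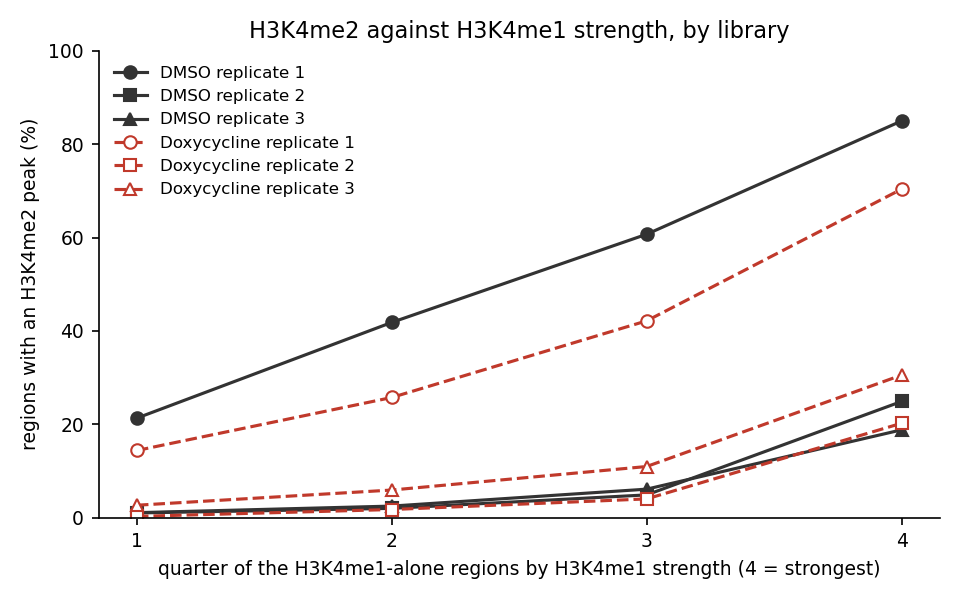
Percentage of H3K4me1-alone regions with an H3K4me2 peak (vertical axis, %) in quartiles of H3K4me1 strength (horizontal axis, 4 strongest), one line per library. Solid black lines are DMSO, dashed red lines doxycycline, and symbols the replicate number. In DMSO replicate 1 the share goes from 21.3% to 85.0%, and every other library is also highest in the strongest quartile.

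Inside the regions, H3K4me2 summits lay towards the middle. Between 50.2 and 59.5% of summits fell in the middle part of the region, taken as 33.3% of its length, in the 6 libraries, and from 6.04 to 11.7% in the outer part, the 33.3% of length nearest the edges. Even spread would put 33.3% in each. Median H3K4me2 peak width was 424, 395 and 292 bp in DMSO and 430.5, 371 and 313 bp with doxycycline. These are single peaks called in narrow mode, whereas the regions merge H3K4me1 peaks of 6 lists called in broad mode. The widths of the peaks and of the regions therefore cannot be compared directly.

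Peaks that separated the treatments were few. H3K4me2 was present in all 3 DMSO and no doxycycline lists at 9 regions (0.138%), against 0.339% of all 58979 regions. The reverse pattern was found at 3 regions (0.0460%), against 0.109%. Both shares were below those of the whole set, and presence in all 3 lists of an arm was limited by the sparse libraries. Leaving out 1 library asks for fewer lists and changes the set of regions, so part of any change in the counts is by construction. The first count was 10 without doxycycline replicate 2, 60 without DMSO replicate 3 and 112 without DMSO replicate 2. The second was 4 without DMSO replicate 3 or doxycycline replicate 1, and 93 without DMSO replicate 1.

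The 3 highest-ranked of the DMSO pattern were in ordinary gene surroundings. The PCCA intron region (chr13:100472132-100474649), in the gene for a propionyl-CoA carboxylase subunit, had H3K4me2 enrichments of 4.05, 4.25 and 4.40 in DMSO replicates 1 to 3, while H3K4me1 there was 3.77, 2.70 and 2.48 in DMSO and 3.55, 3.52 and 2.67 with doxycycline. A region in an intron of GINS1, a DNA replication factor gene (chr20:25397725-25399529), had H3K4me2 at 4.91, 3.16 and 3.50. At chr20:53800407-53801728, an exon of a lncRNA gene 191 kb from ZNF217, it was 4.92, 2.82 and 4.06. Further regions of this pattern were nearest to PPP2R3A, SPSB4, TBC1D1, CCDC91 and DOK5.

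The doxycycline pattern comprised a region in a lncRNA intron 40.3 kb from RAB4A (chr1:229229167-229232399), the ATF3 upstream region (chr1:212529118-212530490) and the ELP6 region (chr3:47542279-47543224). H3K4me2 enrichments with doxycycline were 5.90, 3.57 and 3.58 near RAB4A, which encodes an endosomal GTPase. They were 2.94, 3.68 and 3.61 at the ATF3 upstream region, 35.5 kb from the ATF3 start and within a lncRNA intron. At the ELP6 region, 29.0 kb from the start of this Elongator subunit gene, they were 4.45, 3.42 and 3.55. H3K4me1 at the ELP6 region was 2.105, 2.78 and 1.81 in DMSO and 3.50, 3.27 and 2.79 with doxycycline. These narrowly did not overlap, but they come from lists that differ in calling depth and were not tested. At the ATF3 upstream region H3K4me1 overlapped, at 3.00, 2.49 and 1.96 against 3.04, 2.47 and 2.14. ATF3 was thus nearest to an H3K4me1-alone region with H3K4me2 in all lists and to one with it under doxycycline only.

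H3K4me1-alone regions were mostly intronic or intergenic. By their centre, 41.0% were in an intron of a coding gene, 36.3% intergenic, 15.7% in an intron of a non-coding gene and 3.82% within 1 kb of a coding start site, and the others were in exons. The corresponding shares of acetylated regions were 50.9, 27.7, 11.8 and 5.50%. Over their whole length, 34.9% of H3K4me1-alone regions touched no annotated gene (95% exact interval 33.7 to 36.1), against 24.2% of acetylated and 35.6% of Polycomb regions. The median distance to the nearest coding start site was 38.1 kb (interquartile range 12.5 to 110.8 kb), with 27.6 kb for acetylated, 11.7 kb for Polycomb and 15.2 kb for all H3K4me1 regions. Of the 6519, 1764 (27.1%) lay over 100 kb from a coding start. Regions touched by H3K4me3, a mark of promoters, were left out of all classes but the set of all H3K4me1 regions. Distance from start sites is thus in part set by the selection. Genome positions have no replicates, so these are descriptions without a test.

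Regions of the acetylated class were seldom close by, although single H3K27ac peaks often were. The median distance between centres of an H3K4me1-alone region and the nearest acetylated region was 98.4 kb, and 5.97% had one within 10 kb. From the edge, the nearest H3K27ac peak of any list was at a median of 8.91 kb; 178 regions (2.73%) had one within 1 kb, 3315 had the nearest at 1 to 10 kb and 177 had none within 100 kb. Neighbouring H3K4me1-alone regions were 147 kb apart at the median, and 420 of the gaps were under 10 kb. The densest megabase was chr1 57 to 58 Mb, in DAB1, with 17 regions, followed by 16 each in chr1 18 to 19 Mb (IGSF21, PAX7 and others) and chr20 61 to 62 Mb (CDH4 and TAF4). By chromosome, density ran from 0.303 regions per Mb on X to 3.37 on chromosome 1. On chromosome 19 H3K4me1-alone regions made up 3.00% of H3K4me1 regions in all 6 lists, against 14.8% on chromosome 13. Within 5 Mb of MYCN, which is amplified in this line, there were 41 among 284 H3K4me1 regions in all 6 lists. Over all chromosomes the share was 11.1%.

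The nearest coding genes mostly had promoter H3K4me3, as did those of all H3K4me1 regions together. For 84.6% of the regions the nearest coding gene had promoter H3K4me3 in all 6 lists (87.6% for acetylated regions, 61.8% for Polycomb regions, 87.8% for all 58979 H3K4me1 regions and 71.9% of all 19962 coding genes). H3K4me3 with no H3K27me3 in any list applied to 49.1% (3202 of 6519), and to 6341 of the 9901 acetylated regions. Both H3K4me3 and H3K27me3 in all 6 lists, the bivalent state of many developmental genes, applied to 17.5%. The share was 14.3% for all 58979 H3K4me1 regions, 9.35% for acetylated regions, 39.7% for Polycomb regions and 10.3% of all coding genes. Genes with neither mark in any list were nearest to 10.3% of H3K4me1-alone regions, 9.46% of acetylated regions and 7.33% of all 58979 regions. Such genes made up 11.5% of all coding genes.

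The regions were unevenly spread over genes. In all, 3295 of 19962 coding genes (16.5%) were the nearest gene of at least 1 region and 259 of 5 or more. The 12 genes with the most took 181 regions, 121 of which overlapped that gene. Long genes and gene-poor surroundings give more room, so densities are per Mb of the territory nearest to a gene, with 2.15 H3K4me1-alone and 3.27 acetylated regions per Mb over all coding genes.

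DAB1, an adaptor of reelin signalling in neuronal migration, had the most, with 21 regions (18.4 per Mb) and 4 acetylated ones. All 21 overlapped the gene, their widths ran from 1532 to 4926 bp, and none had H3K4me2 in more than 2 lists, 8 having it in none. RORA, an orphan nuclear receptor gene, followed with 18 (17.2 per Mb), of which 14 overlapped it and 14 had H3K4me2 in at least 1 list. The cadherin genes CDH13 and CDH4 had 17 and 16, beside 8 and 3 acetylated regions. EPHB1, an ephrin receptor in axon guidance, had 15 (18.2 per Mb) against 2 acetylated regions, and its promoter had both H3K4me3 and H3K27me3. NTRK3, the neurotrophin-3 receptor, had the same promoter state with 13 regions, including 1 with H3K4me2 in all 6 lists.

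UQCRFS1, a respiratory complex III gene, had 16 regions in a territory of 2.71 Mb (5.90 per Mb), and none of the 16 overlapped it. NR2F2, a nuclear receptor gene, had 13 regions (7.45 per Mb), and none overlapped it either. The other 4 with 13 each were the presynaptic genes ERC2 and NRXN3, the transcription factor gene NFIA and the receptor phosphatase gene PTPRM. PTPRM stood out among these 12 for acetylated regions, 11 in number, and 9 of its 13 H3K4me1-alone regions had no H3K4me2. Of the 181 regions near the 12 genes 37.0% had no H3K4me2 in any list, close to the 34.7% of all H3K4me1-alone regions.

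Lists of genes chosen for the cell type and the study were examined in the same way. Over all 19962 coding genes, 16.5% were the nearest gene of at least 1 region. Around 18 adrenergic core transcription factors, which define the noradrenergic state of neuroblastoma, there were 27 H3K4me1-alone regions (3.05 per Mb) against 64 acetylated (7.23 per Mb). At least 1 H3K4me1-alone region was nearest to 9 of these genes (50%). SOX11 had 8, ZNF536 had 5 and GATA3 had 4 beside 16 acetylated regions. Of the 8 regions near SOX11, 7 had H3K4me2 in at least 1 list, and none overlapped the gene. Around 22 mesenchymal transcription factors the densities were close to each other, 3.25 and 3.58 per Mb, with 6 genes (27.3%) having a region. SMAD3, a TGF-beta effector, had 8 H3K4me1-alone regions and 1 acetylated, and MAML2, a Notch co-activator, had 3 and 0. SOX9, with both H3K4me3 and H3K27me3 at its promoter, had 3 and 6.

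Axon guidance genes had 100 regions near 25 of 36 genes (69.4%, against 16.5% of all coding genes). Their densities were 2.62 per Mb and 4.28 acetylated, against 2.15 and 3.27 per Mb over all coding genes. A share of genes with a region rises with territory, which was 38.1 Mb for this list. EPHB1 led, then EPHA4 with 8, followed by PLXNA4, ROBO1 and SEMA6D with 7 each. EPHA4 had both promoter marks and 1 acetylated region, whereas PLXNA4 had 15 acetylated regions. Neurotransmitter receptor genes had 29 near 13 of 30 (43.3%), in a territory of 18.8 Mb. Their density of 1.54 per Mb, against 3.57 acetylated, was below the 2.15 per Mb of all coding genes, although the share was above 16.5%. The kainate receptor gene GRIK4 had 10 of them, all inside the gene. The glutamate receptor gene GRM8 had 5 and the serotonin receptor gene HTR2A had 3.

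RUNX1T1 and 17 genes of its partners had the lowest density of H3K4me1-alone regions among the lists, 0.852 per Mb, and the highest density of acetylated ones, 7.88 per Mb. A region was nearest to 4 of the 18 genes (22.2%, against 16.5% of all coding genes), CBFA2T2, RCOR1, RUNX1T1 and TCF12 with 1 each. The region nearest to RUNX1T1 was 169 kb from its start, 2147 bp wide, and had H3K4me2 in all 6 lists. Those of CBFA2T2 and RCOR1, a corepressor relative and a subunit of the CoREST complex, had it in none. With 4 regions in 4.69 Mb, this density rests on few regions.

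Lists included as controls gave mixed values. Of 28 cytosolic ribosomal protein genes 3 (10.7%, against 16.5% of all coding genes) had a region, RPLP1 with 6, RPS23 with 3 and RPL11 with 1. None overlapped the gene, and the 7.40 per Mb of this list comes from a territory of 1.35 Mb. Of 20 blood cell genes 6 (30%) had a region (22 regions, 5.02 per Mb against 4.56 acetylated), and 18 of the 22 were near BCL11A and EBF1 with 9 each. Both are transcription factor genes whose promoters had H3K4me3 without H3K27me3 here, in contrast to most of that list. Of 18 liver genes 2 (11.1%) had a region, APOB with 2 and CPS1 with 1 (1.29 per Mb against 2.14).

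**Figure D5:**
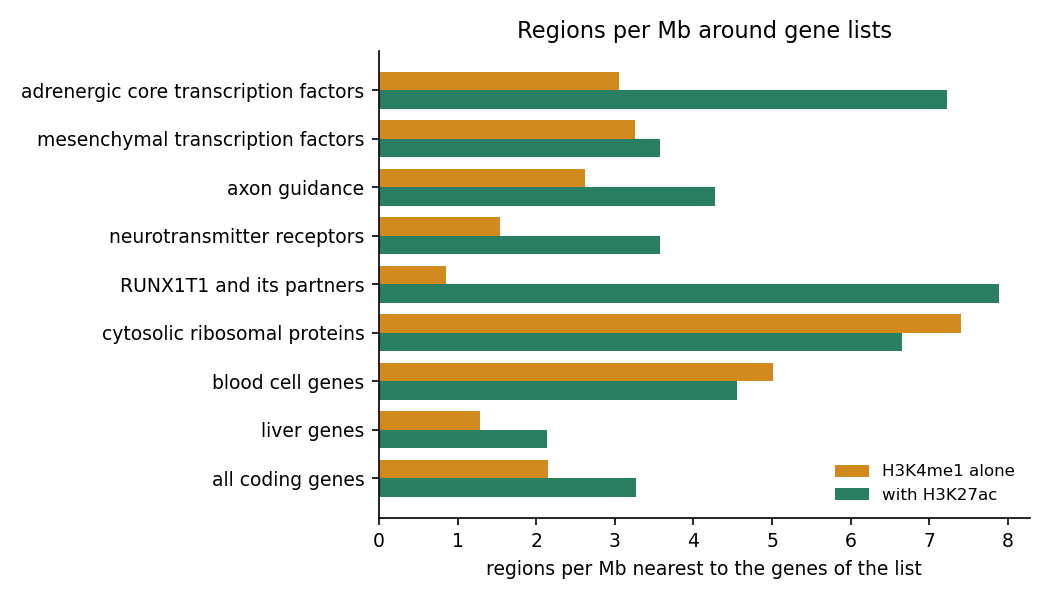
H3K4me1-alone (orange) and acetylated (green) regions per Mb (horizontal axis) of the territory nearest to the genes of 8 lists and to all coding genes (vertical axis). RUNX1T1 and its partners show 0.852 against 7.88 per Mb, and the ribosomal and blood lists are those with more H3K4me1-alone than acetylated regions.

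The sequence of the regions was AT-rich beside other H3K4me1 regions. In 300 bp windows at the centre of each region, median GC content was 43.7% for H3K4me1-alone regions, 47.2% for acetylated, 56.3% for Polycomb and 47.3% for all 58979 regions, against 58.7% for the 35114 RefSeq promoter windows of 300 bp (GRCh38.p14). The windows held 3.22 CpG on average, against 3.89 in acetylated and 9.35 in Polycomb regions. Within the H3K4me1-alone regions, GC content was 48.0% where H3K4me2 was in all 6 lists and 41.3% where it was in none. GC content affects recovery in ChIP-seq, and its part in the H3K4me2 calls was not tested.

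The letters AGATAA, the core of GATA factor motifs, stood on either strand in 26.9% of H3K4me1-alone windows, 18.3% of acetylated, 15.2% of Polycomb and 18.7% of all windows, and in 10.3% of promoter windows. Among windows with 40 to 45% GC, 31.9% of 1481 H3K4me1-alone and 24.1% of 1834 acetylated windows held them, with 28.6% of 56 Polycomb windows and 25.6% over all regions. TAATTA was found in 14.8% against 10.5% of acetylated and 4.36% of Polycomb windows, and in 15.3% against 13.8% and 5.36% at 40 to 45% GC. In H3K4me1-alone regions with no H3K4me2, 31.0% held AGATAA, against 21.4% of those with all 6 lists, and at 40 to 45% GC the former was 32.4%.

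For the other motifs, CAGCTG was in 17.6% of H3K4me1-alone and 19.2% of acetylated windows, CATCTG in 24.4 and 24.5%, TGANTCA in 11.0 and 10.4%, TGTGGT in 17.96 and 18.6% and CATTCC in 17.5 and 15.9%. For all 58979 regions these shares were 17.4, 22.1, 9.33, 17.2 and 15.9%, and for promoter windows 17.9, 14.7, 7.71, 13.1 and 14.0%. CAGCTG was in 28.6% of the 84 windows with H3K4me2 in all 6 lists and in 15.4% of those with none, but at 40 to 45% GC the order was the other way, 6.25% of 16 and 15.9% of 586 windows. In the printed windows, CATCTG is at base 140 and CATTCC at base 68 of the KLRG2 window, CATTCC at base 85 of the ATF3 intron window, TGANTCA at base 16 of the KCNIP4 window, and CAGCTG and CATCTG at bases 49 and 113 of the ATF3 upstream window, counted from 1 at the left end. The PCCA and ELP6 windows held none of the 7. A match describes letters only, and no factor binding was measured.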

How the data were processed

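The data were 30 ChIP-seq peak lists from KELLY cells (5 marks, DMSO or doxycycline for 72 h, 3 libraries each); 4 input samples of the 34 had no list of their own. Groups and replicate numbers came from the labels. The authors aligned reads to hg38 and called peaks per library with MACS2 2.1.1.20160309; the submitters' processing notes also name Bowtie2, SAMtools and deepTools. The file headers give broad calls with q limits of 0.05 and 0.1 for H3K4me1 and both lysine 27 marks. They give narrow calls at p 1e-05 for H3K4me2 and H3K4me3, where the methods of the study state q 0.05. Per the file headers, reads were treated as single-ended, and replicates 1 and 3 of a treatment had inputs with equal read totals. The deposited pileup is the coverage signal at a peak. Each peak's deposited −log10 q-value, and its −log10 p-value, come from the authors' caller, as does the deposited fold enrichment, the ratio of ChIP to local input. Because the larger library is scaled to the smaller and calling depth differed between the arms, weak peaks can be lost in the shallower arm. Fold enrichment was tested only between classes within a list. Values of single regions are printed side by side across lists without a test.

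Overlap was at least 1 bp. H3K4me1 strength was the mean over lists of a region's percentile of −log10 q. Genes were GENCODE 44 (19962 coding symbols), promoters 1 kb either side of coding start sites, a gene's territory the sequence closest to its start sites, and genome sequence hg38. Classes were compared by exact sign flips over 6 libraries and treatments by exact permutation of 3 against 3, both two-sided, with Benjamini-Hochberg adjustment over 6 and 3 tests. Regions are not replicates, and place and sequence were not tested. Named regions were the 3 of highest H3K4me1 strength in each of 4 H3K4me2 classes (all 6 lists, none, and each treatment only) and the 3 widest; named genes were the 12 nearest to most regions and the top 3 of each of 8 lists, and 5 further regions of the DMSO-only class, and ROBO1 and SEMA6D as ties in the axon guidance list, were named after their values were seen. Some items are not reported here. The regions and lists were chosen with earlier results of these data known. Alternatives were stricter peak limits, other exclusion rules, leaving out libraries or the MYCN surroundings, equal list lengths, width matching, other class and promoter definitions and a replicate block; matching by H3K4me1 strength and leaving out a replicate number in both arms were added after seeing the data. Python 3.11.15, numpy 2.4.6, pandas 2.3.3 and scipy 1.17.1 were used. The exclusion step, applied to the regions already merged from all 6 lists, gave the same 6519 with bedtools 2.31.1. The code was also run with 300 planted regions among the merged H3K4me1 regions, and 100.0% were recovered. Each had the same peak in all 6 H3K4me1 lists, in a stretch without other peaks. This checks the code only and does not show how the selection treats weak or variable peaks.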

Additional observations from a re-analysis of the deposited data

How the results depend on the processing

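With H3K4me1 peaks of q 0.001 or less, 407 regions were H3K4me1 alone, 4 of them without H3K4me2 and 0 separating the treatments in either direction; their median width was 2325 bp, 37.8% touched no gene, the median distance was 29.9 kb, 83.0% had H3K4me3 in all 6 lists at the nearest gene, the H3K4me2 share differed by 1.88 points between treatments (reversed), and the log2 ratios of enrichment to acetylated regions (−0.048) and of peak width to Polycomb regions (−0.24) no longer passed. Excluding only peaks that covered 10% of a region gave 137 regions with H3K4me2 in all 6 lists, a width of 1995 bp and an enrichment ratio to Polycomb regions of −0.0034 (reversed). H3K4me2 peaks of −log10 q of 10 or more gave 12 regions in all 6 lists, 3696 in none and 4 in DMSO only, a treatment difference of 0.0153 points (reversed), ratios of enrichment of −0.071 to acetylated (no longer passing) and −0.0036 to Polycomb regions (reversed), and a width ratio of −0.18 to Polycomb regions (no longer passing). H3K4me2 lists of equal length gave 49 in all 6 lists, 4862 in none, 14 in DMSO only and 18 in doxycycline only, a treatment difference of 0.286 points (reversed) and an enrichment ratio of −0.061 to acetylated regions, which no longer passed.

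Against Polycomb regions, regions of 1 to 2 kb gave log2 ratios of −0.22 for width (no longer passing) and −0.031 for enrichment (reversed), an H3K4me1 percentile of 60 to 80 gave −17.4 points for share and −0.12 for width (neither passing), and Polycomb regions defined by at least 1 list gave −0.0059 for enrichment (reversed). Counting distance to gene 5′ ends only, the median was 80.95 kb.

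Leaving out single libraries, or a replicate number in both treatments, gave 104 to 251 regions with H3K4me2 in all lists left, 3145 to 7446 in none, 10 to 144 in DMSO only and 4 to 157 in doxycycline only, and a median width of 1720 to 1806 bp. The treatment difference in share ran from −11.957 to 11.0 points and the log2 ratio of H3K4me2 length from −0.60 to 1.02. Differences to acetylated regions ran from −47.2 to −41.7 points, and log2 ratios from −0.60 to −0.43 for width and from −0.13 to −0.043 for enrichment; those to Polycomb regions ran from −29.97 to −20.9 points, from −0.30 to −0.13 and from −0.030 to 0.086. With 5 libraries no sign-flip p can go below 0.0625. Under the replicate block, which flips the 3 pairs, the differences were the same (−3.42 points, −0.16 and 0.08) with exact p of 0.75, 0.25 and 1; 0.25 is the smallest p that 3 pairs allow, so this fit could make no call. Deviations of same-numbered H3K4me2 libraries correlated at 0.0896, 0.0579 and 0.0290, and DMSO replicate 3 correlated best with doxycycline replicate 2 (0.125), so pairing by number was not shown at these regions, although replicate 3 had the most redundant reads (16 to 25%) of each mark and treatment. Except for the smaller sets that some settings leave by construction, the cause of these changes was not tested. Peak presence gives no value below the calling limit, so weak H3K27ac or H3K4me2 at these regions was not detectable.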
